A study of Homo sapiens with 32 samples.

Results

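The genes described here are ACACA, ACLY, FASN, SCD, SREBF1, SREBF2, SQLE and INSIG1, 8 genes of lipid and sterol synthesis out of 20037 protein-coding genes in the annotation. Their data are the m6A peaks of 16 lists that overlap their gene bodies by at least 1 bp, which were 468 of the 474004 peaks deposited. The genes were chosen by name, and the choice was made with a region of ACACA in view that was called in the SETD2-expressing 786-O libraries. The contrast of SETD2KO and SETD2-expressing libraries in 786-O is therefore given as a description, with no test.

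The study asked how loss of SETD2, the enzyme that trimethylates histone H3 at lysine 36, relates to N6-methyladenosine (m6A) on RNA. It used MeRIP-seq, in which RNA fragments are enriched with an antibody against m6A and the immunoprecipitated (IP) fraction is set against the Input. 786-O is a clear cell renal cell carcinoma (ccRCC) line grown in RPMI1640 with serum, and RPTEC is an hTERT-immortalized renal proximal tubule line grown in DMEM/F12 with a growth kit and serum. Each has a parent with intact SETD2 (WT), a pair of CRISPR knockout clones (SETD2KO-1 and SETD2KO-2) and SETD2KO-1R, a clone derived from SETD2KO-1 after a full-length FLAG-tagged SETD2 transgene was put back. No line received a drug. Each of the 4 lines of a cell line has 2 IP libraries, so there are 8 libraries per cell line, 4 SETD2KO and 4 SETD2-expressing (WT and SETD2KO-1R). The knockout and rescue lines are single clones, and the libraries of a line share that clone. The names of the deposited lists differ between the 2 cell lines in the MeRIP label they carry, and no source used here says whether the cell lines were processed together, so a difference between experiments cannot be told apart from cell line.

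Lipogenesis turns citrate into fatty acids and sterols in a chain of enzymes. ACLY splits citrate to give cytosolic acetyl-CoA, ACACA (acetyl-CoA carboxylase) makes malonyl-CoA, FASN (fatty acid synthase) builds palmitate, and SCD (stearoyl-CoA desaturase) adds the double bond. SQLE (squalene epoxidase) carries out an oxygen-dependent step toward cholesterol. SREBF1 and SREBF2 encode the membrane-bound transcription factors SREBP-1 and SREBP-2, which drive these genes, and INSIG1 holds them in the endoplasmic reticulum when sterol is plentiful. ccRCC cells are known for the lipid they store, from which the tumor type takes its clear cytoplasm. m6A is placed on nascent RNA by a methyltransferase complex that contains METTL3, and it affects splicing, stability and translation.

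Some of the called peaks reached past the annotated start of these genes, so the promoter sequences concerned are shown. The promoter table, from RefSeq on GRCh38, matched 6 of the 8 genes, not FASN or SQLE. Of the 16 lists, 9 held a peak in the 250 bases before the start of SREBF2, 8 before the first start of ACACA, 8 before that of SREBF1, 6 before that of SCD and 1 before that of INSIG1. No list held a peak before the 2 starts of ACLY or the other 2 starts of ACACA. The 250 bases before the start of the 4 genes with the most such lists follow, 5′ to 3′ on the gene's strand. Capitals mark the letters searched: the core of the sterol regulatory element TCACCCCAC, the E-box CACGTG and the CCAAT box (CCAAT), each on either strand, so that ATTGG is a CCAAT box on the other strand.
SREBF2, chr22:41832855-41833104, + strand: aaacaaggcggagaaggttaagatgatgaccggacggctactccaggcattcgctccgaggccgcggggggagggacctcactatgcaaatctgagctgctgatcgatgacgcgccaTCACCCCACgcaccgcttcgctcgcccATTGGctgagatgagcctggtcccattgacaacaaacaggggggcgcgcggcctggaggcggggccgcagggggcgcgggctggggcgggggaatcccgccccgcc
ACACA, chr17:37406837-37407086, - strand: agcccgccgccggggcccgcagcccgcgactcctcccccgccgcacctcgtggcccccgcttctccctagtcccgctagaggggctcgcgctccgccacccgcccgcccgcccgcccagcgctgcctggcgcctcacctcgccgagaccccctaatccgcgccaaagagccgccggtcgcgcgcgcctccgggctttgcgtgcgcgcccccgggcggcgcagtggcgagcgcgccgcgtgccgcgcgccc
SREBF1, chr17:17836987-17837236, - strand: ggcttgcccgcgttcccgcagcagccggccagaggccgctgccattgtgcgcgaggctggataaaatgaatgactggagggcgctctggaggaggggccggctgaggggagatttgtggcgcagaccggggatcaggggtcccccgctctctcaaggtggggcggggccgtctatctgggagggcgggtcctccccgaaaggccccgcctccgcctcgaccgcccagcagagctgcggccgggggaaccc
SCD, chr10:100346983-100347232, + strand: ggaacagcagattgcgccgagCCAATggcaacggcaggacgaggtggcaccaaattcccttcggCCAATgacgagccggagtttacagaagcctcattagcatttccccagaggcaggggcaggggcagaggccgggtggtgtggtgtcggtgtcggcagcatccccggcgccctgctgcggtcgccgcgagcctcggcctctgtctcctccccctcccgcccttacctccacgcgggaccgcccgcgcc

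SREBF2 held the core of the sterol regulatory element, the sequence that SREBPs bind, from 133 bases before its start, and a CCAAT box on the other strand from 106 bases before it. These letters were in 127 of the 35116 promoter windows of that length (0.362%), the E-box in 6.34% and the CCAAT box in 32.0%. SCD held 2 CCAAT boxes. The E-box was found before the start of INSIG1, from 55 bases before it, and in none of the other windows of these genes. No searched letters were found in the windows of SREBF1 and ACACA shown here. Introns of both SREBP genes hold a microRNA of the miR-33 family, which is known to restrain cholesterol export. Their mature 5p strands are shown because a called peak touched the miR-33b hairpin, and they share the seed (bases 2 to 8, in capitals).
hsa-miR-33a-5p, in SREBF2, chr22:41900949-41900969, + strand: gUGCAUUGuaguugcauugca
hsa-miR-33b-5p, in SREBF1, chr17:17813897-17813916, - strand: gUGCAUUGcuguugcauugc

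The lists hold positions, a whole-number score and a summit for each peak, with no read counts. The depth of each library is therefore unknown and counting intervals could not be computed. The score was used only to rank the peaks of a list, as a percentile in which 100 is the highest. A gene with no peak in a library was given rank 0. The lists were of 25710 to 39670 peaks in 786-O and 19249 to 31207 in RPTEC. Kidney tubule genes PAX8, PAX2, CDH6, KRT8 and KRT18 held a peak in all 16 libraries. Of 7 genes of other cell types, 6 held none, and CDH5 held one in 4 RPTEC libraries. The SETD2 transcript itself held 4 to 10 peaks in the SETD2KO and 7 to 10 in the SETD2-expressing 786-O libraries, and 4 to 6 against 7 to 11 in RPTEC. By called peaks, 295 of 12185 genes (2.42%) had an unadjusted exact permutation p under 0.05 between these RPTEC groups. With 4 against 4 libraries, only groups that do not overlap reach such a p. SETD2KO-1R also carries the SETD2 transgene, whose RNA cannot be told apart here. A called peak on a transcript does not check a CRISPR knockout of its protein.

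All 8 genes held called peaks in each cell line. SREBF1, SREBF2, ACACA and SQLE held a peak in all 16 libraries, ACLY in 15, SCD in 14, FASN in 12 and INSIG1 in 9. Over all genes with a peak in at least 1 library, 4626 of 13420 (34.5%) held a peak in all 16. The median member had a peak in 15.5 libraries, against 13 over those 13420 genes. Per length of gene, FASN had the most called peaks, 1.95 per 10 kb and library, followed by SREBF1 with 1.66 and SREBF2 with 1.26, and ACACA the fewest, with 0.126. When the peaks of the 16 lists were merged where they overlapped, the 8 genes held 104 regions. Of these, 39 had a call in just 1 library, 11 in at least 12, and 3 in all 16. Over the 82676 regions in protein-coding genes the shares were 35.6% in 1 library, 12.9% in at least 12 and 4.86% in all 16.

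**Figure D1:**
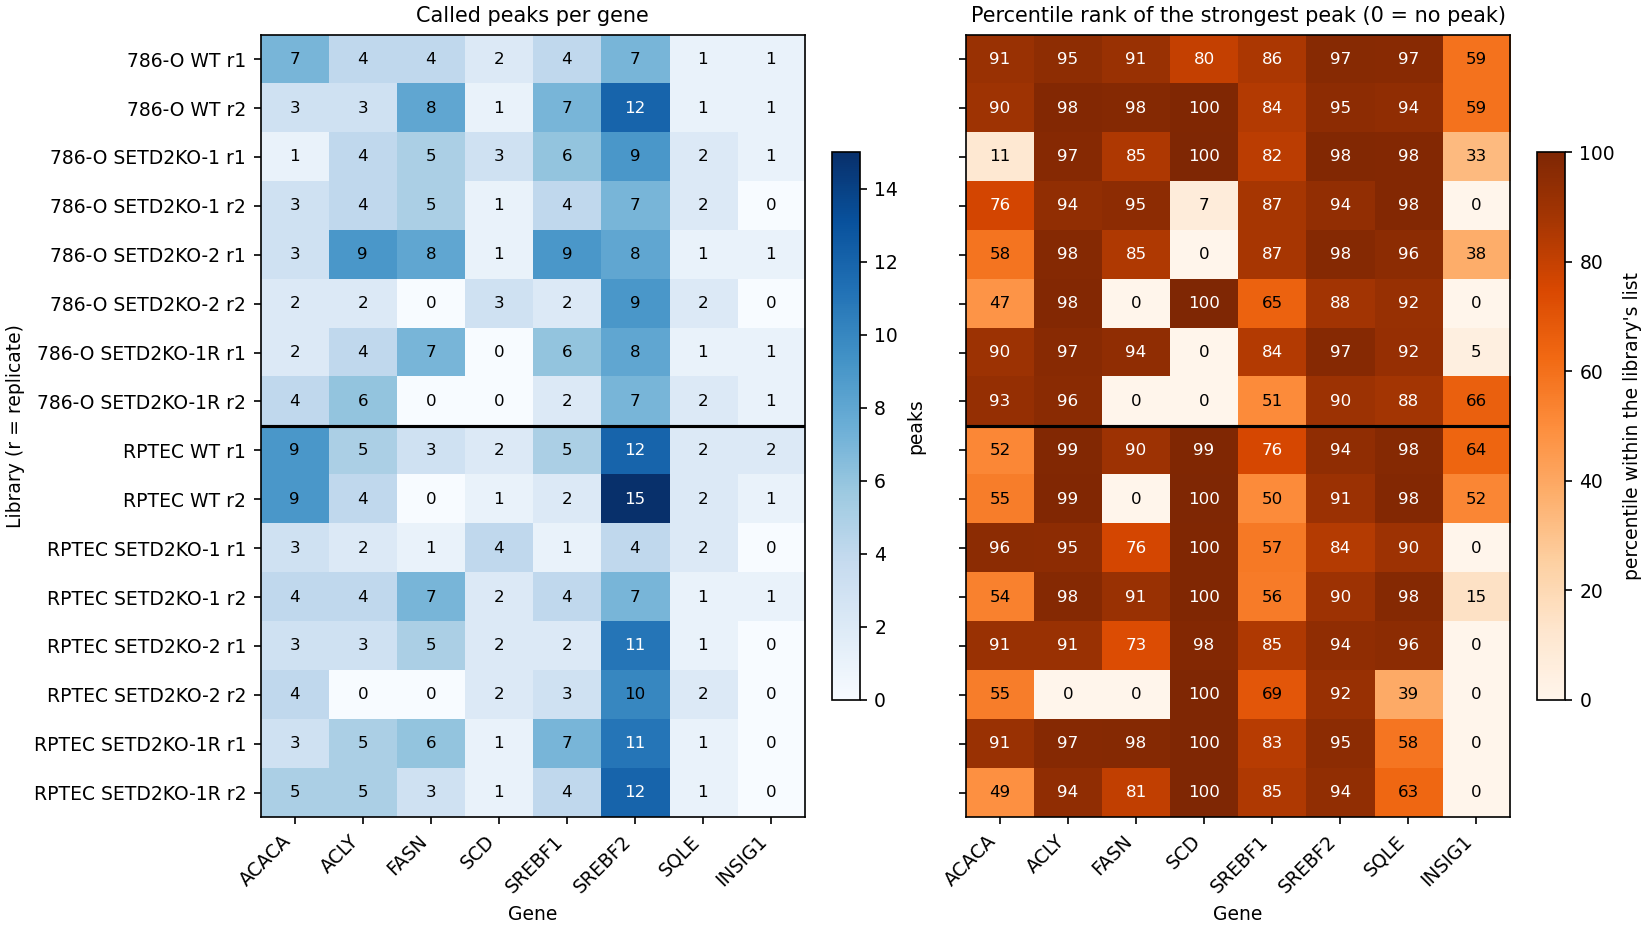
Called peaks per gene (left) and the percentile rank of the strongest peak (right, 0 where no peak was called) for the 8 genes (columns) in each of the 16 libraries (rows, the black line parts 786-O above from RPTEC below). SREBF2 has the most peaks in most libraries, FASN is at 0 in 4 libraries, and SCD is at 0 in both 786-O SETD2KO-1R libraries.

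SREBF2 (chr22:41833105-41907305, GRCh38, + strand, 74201 bp) carried the most peaks of the 8 genes, 149 in all. In 786-O it held 7 and 12 peaks in WT, 9 and 7 in the SETD2KO-1 clone, 8 and 9 in the SETD2KO-2 clone, and 8 and 7 in SETD2KO-1R. In RPTEC it held 12 and 15 in WT, 4 and 7 in the SETD2KO-1 clone, 11 and 10 in the SETD2KO-2 clone, and 11 and 12 in SETD2KO-1R. The 4 RPTEC SETD2KO libraries thus lay at or below the lowest SETD2-expressing library, as they also did for ACLY, while the 786-O sides overlapped. The share of all genes with that pattern was not counted. Over all genes tested in RPTEC, the median difference, SETD2KO minus SETD2-expressing, was -0.25 peaks. The region at chr22:41866199-41867062, which begins 33094 bp after the start of the gene, was called in all 16 libraries at ranks of 73.1 to 97.8 (median 88.9). The region over the start, from 142 bp before it to 1018 bp after it, was called in 13 libraries with a median rank of 94.1. SREBF2-AS1 overlaps that region, and the lists carry no strand, so the transcripts cannot be told apart there. No list held a peak over the miR-33a hairpin, to which the nearest peak lay 98 bp away.

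SREBF1 (chr17:17811334-17836986, - strand) held 1 to 9 peaks per library. Its region at chr17:17820308-17820777 was called in all 16 libraries, at ranks of 33.5 to 86.9 (median 62.8). A broad region over the start was called in 13 libraries, at a median rank of 74.5. The miR-33b hairpin was overlapped by a peak in 1 library, 786-O SETD2KO-1R replicate 1, at rank 13.1. A region near the 3′ end that overlaps MIR6777 was called in 7 libraries, with a median rank of 43.6.

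INSIG1 (chr7:155297878-155310235, + strand) was the member called least often. A region from 98 to 555 bp after its start was called in 6 of the 8 786-O libraries, in both of WT and SETD2KO-1R and in the first replicate of each SETD2KO clone. Its ranks in 786-O were 59.1 and 59.3 in WT, 33.0 in the SETD2KO-1 clone, 37.5 in the SETD2KO-2 clone, and 4.9 and 66.0 in SETD2KO-1R. In RPTEC the region was called in WT replicate 1 at 26.7 and in SETD2KO-1 replicate 2 at 14.9. A second INSIG1 region, 6814 to 7191 bp after the start, was called in both RPTEC WT libraries, at ranks 64.0 and 52.1, and in no other library. ACLY (chr17:41892528-41892924) and ACACA (chr17:37401191-37401547) each held a region with the same calls. The share of all regions with these calls was not counted. The start region also overlaps INSIG1-DT, a divergent transcript.

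ACACA (chr17:37084992-37406836, - strand, 321845 bp) held the region that set the 786-O SETD2-expressing libraries apart. This region, chr17:37097972-37098401 in the merged 786-O lists, is 430 bp long and lies 12980 bp from the 3′ end of the gene. It was called in 786-O WT at ranks 91.2 and 89.5 and in SETD2KO-1R at 90.5 and 92.8, and in none of the 4 SETD2KO libraries. It was the strongest ACACA peak of each of the 4 libraries that called it. Among all 65991 786-O regions in protein-coding genes, 100 (0.152%) had calls from the 4 SETD2-expressing libraries and from none of the SETD2KO ones. A further 185 (0.28%) were called the other way round, none of them in these 8 genes. The nearest peak of a SETD2KO library in 786-O, in SETD2KO-1 replicate 2, lay 1165 bp away at rank 0.8.

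**Figure D2:**
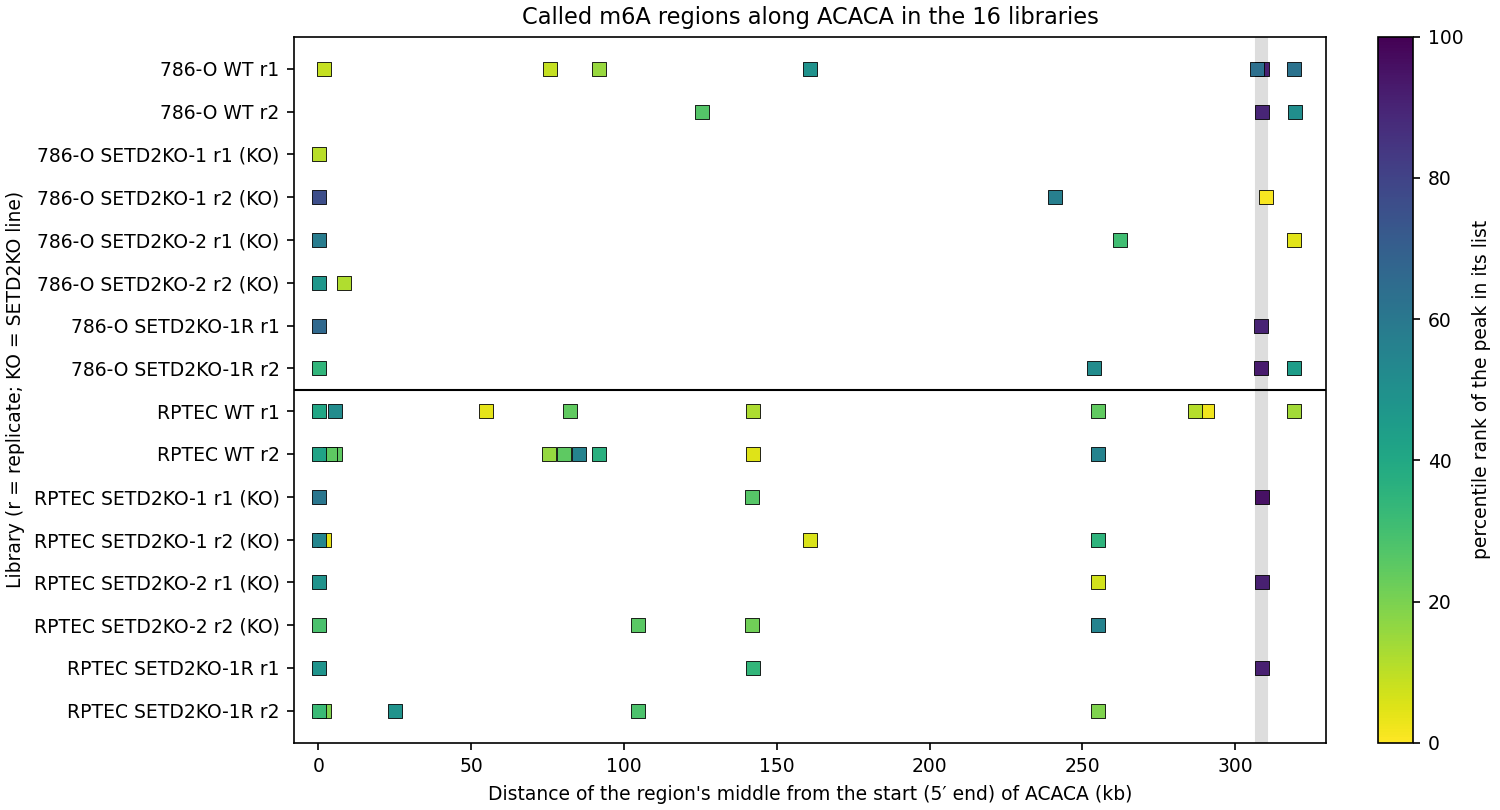
Called regions along ACACA: the x axis is the distance from the start of the gene in kb, each row is a library, and each square is a region called there (wider than the region itself), coloured by the percentile rank of its peak. The grey band marks the region near the 3′ end called in the 4 SETD2-expressing but not the SETD2KO libraries of 786-O, and in 3 RPTEC libraries, 2 of them SETD2KO.

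RPTEC called the same ACACA region without that split. It was called in replicate 1 of SETD2KO-1 at rank 95.6, of SETD2KO-2 at 91.4 and of SETD2KO-1R at 91.3, and in no RPTEC WT library. That is 2 of 4 SETD2KO libraries against 1 of 4 with SETD2 (Fisher's exact test, two-sided, p = 1, where 4 against 4 can reach 0.0286). The summits of the 7 libraries that called it lay within 29 bp of each other.

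The strongest ACACA peak gave 786-O ranks of 91.2 and 89.5 in WT, 10.6 and 76.4 in the SETD2KO-1 clone, 58.3 and 46.9 in the SETD2KO-2 clone, and 90.5 and 92.8 in SETD2KO-1R. All 4 SETD2KO libraries were below all 4 SETD2-expressing ones, as the region above implies. Of 12430 genes with a peak in 786-O, 2.07% were separated in this direction by rank and 2.61% in the other. By the number of called peaks, 0.901% had all 4 SETD2KO libraries below and 1.52% above, and no member was among them. ACACA was the single member separated by rank.

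The 5′ end of ACACA showed another pattern. A region from 427 bp inside the gene to 114 bp past its start was called in 14 libraries and missed in both 786-O WT libraries. Its ranks ran from 10.6 in 786-O SETD2KO-1 replicate 1 to 76.4 in SETD2KO-1 replicate 2. The SETD2KO-1R libraries, which re-express SETD2, called it at 66.4 and 34.4, and so did not return to the WT pattern. Over 82676 regions in protein-coding genes, 13 (0.0157%) were called in every library but these. TADA2A, the neighboring gene, also overlaps the outer edge of the region.

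In RPTEC, WT stood apart in the number of ACACA peaks. Both WT libraries held 9 peaks, and the other 6 held 3 to 5, with SETD2KO-1R at 3 and 5. Of 12185 genes with a peak in RPTEC, 167 (1.37%) had more peaks in both WT libraries than in every other RPTEC library. The extra WT regions had ranks below that of the 3′ region, as the map of called regions along ACACA shows.

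ACLY (chr17:41866917-41930545, - strand) carried a strong region near its 3′ end, at chr17:41867854-41868296. It was called in 14 libraries at ranks of 93.9 to 99.1 (median 97.4), with summits within 72 bp of each other. The libraries that missed it were the RPTEC SETD2KO-2 pair. SETD2KO-2 replicate 1 held 3 other ACLY peaks, the strongest at rank 91.4, and replicate 2 held none. In all, 58 of the 82676 regions (0.0702%) were called in every library but those. SETD2KO-1 in RPTEC called the region at 95.0 and 97.7, so the calls of the 2 libraries of each clone differed here. SETD2KO-2 replicate 2 was the shortest RPTEC list, with 19249 peaks, and the part of list length was not tested. A region 8440 bp from the 3′ end was called in 13 libraries at a median rank of 35.7, and another 39783 bp from it in 12 libraries at 81.5.

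FASN (chr17:82078338-82098236) was called in 12 libraries and missed in 4. It had 4 and 8 peaks in 786-O WT, 5 and 5 in SETD2KO-1, 8 and 0 in SETD2KO-2, and 7 and 0 in SETD2KO-1R. In RPTEC it had 3 and 0 in WT, 1 and 7 in the SETD2KO-1 clone, 5 and 0 in the SETD2KO-2 clone, and 6 and 3 in SETD2KO-1R. The 4 libraries at 0 were all of replicate 2 and were the 2 shortest lists of each cell line, with 25710 and 28934 peaks in 786-O and 19249 and 23126 in RPTEC. In the libraries that held FASN peaks, the strongest stood at ranks of 73.3 to 97.9. Of 13420 genes, 12 (0.0894%) had no peak in these 4 lists and a peak in the 12 others. The part of list length in the FASN calls was not tested. All 12 libraries with a FASN peak shared the region at chr17:82086472-82086833, with a median rank of 87.6.

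**Figure D3:**
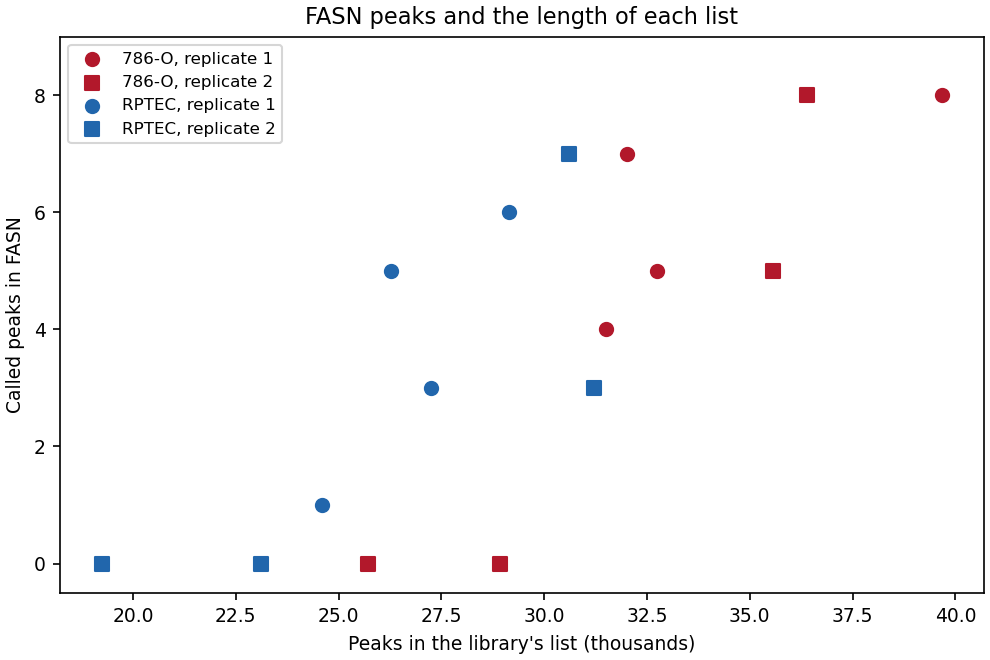
Called peaks in FASN (y axis) against the number of peaks in the library's list (x axis), 1 point per library, coloured by cell line and shaped by replicate number. The 4 libraries with no FASN peak are the 2 shortest lists of 786-O and the 2 shortest of RPTEC, all of replicate 2.

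SCD (chr10:100347233-100364826, + strand) held the highest ranked peaks of the 8 genes. Its region from 411 to 866 bp after the start was called in all 8 RPTEC libraries, at ranks of 98.1 to 100. In 786-O it was called in 3 libraries, WT replicate 2 at 99.6, SETD2KO-1 replicate 1 at 99.8 and SETD2KO-2 replicate 2 at 99.9. The strongest SCD peak of the other 786-O libraries stood at 80.0 in WT replicate 1, 7.3 in SETD2KO-1 replicate 2 and 0.3 in SETD2KO-2 replicate 1, and both SETD2KO-1R libraries held none. The replicates of each SETD2KO clone were thus at opposite ends of the scale, and the SETD2KO and SETD2-expressing libraries overlapped. Of 12430 genes, 108 (0.869%) had no peak in both 786-O SETD2KO-1R libraries and a peak in the 6 others. The smallest overlap that counted was at this gene, where a peak of 786-O WT replicate 1 reached 19 bp into it. A peak of RPTEC WT replicate 1 that ended 7 bp short of the gene did not count.

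SQLE, on chromosome 8, held 1 or 2 peaks in every library. The region over the gene's lower end was called in all 16, at ranks of 39.0 to 98.2 (median 95.0). The 786-O ranks of the strongest SQLE peak were 88.2 to 98.1. RPTEC had 97.8 and 98.2 in WT, 90.1 and 97.7 in the SETD2KO-1 clone, 95.5 and 39.0 in the SETD2KO-2 clone, and 58.0 and 63.1 in SETD2KO-1R, the pair of rescue libraries both below the WT pair. A further region 4397 bp from the lower end was called in 4 786-O libraries, at ranks of 83.4 to 92.0, and in no RPTEC library. These were both SETD2KO-1 libraries, SETD2KO-2 replicate 2 and SETD2KO-1R replicate 2.

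No member passed the test between the cell lines. All 8 had a peak in at least 1 library, the filter for the test. Each gene was tested by an exact permutation test of 8 against 8 libraries (12870 arrangements, two-sided), with Benjamini-Hochberg adjustment over all 13420 genes. By called peaks, 462 genes (3.44%) were higher in 786-O and 257 (1.92%) in RPTEC at an adjusted p under 0.05. By the rank of the strongest peak, 512 (3.82%) were higher in 786-O and 331 (2.47%) in RPTEC. None of the 8 genes was among them by either measure, and at an unadjusted p under 0.05 there was 1, SCD by rank.

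SCD had a mean rank of 48.4 ± 50.1 in 786-O and 99.5 ± 0.592 in RPTEC (SD, n = 8 libraries each; difference -51.1 percentile points, exact permutation p = 0.0205, adjusted p = 0.151). Its called peaks were 1.38 ± 1.19 against 1.88 ± 0.991 (SD, n = 8 each; exact permutation p = 0.506, adjusted p = 0.869). The remaining differences in rank were 1.59 for ACACA, 3.04 for SREBF2, 5 for FASN, 8.14 for SREBF1, 12.5 for ACLY, 14.6 for SQLE and 16.1 for INSIG1 percentile points, each with the 786-O mean above the RPTEC mean. The exact permutation p of these 7 lay between 0.124 and 0.948. The median difference over the 8 genes was 6.57, and over all genes tested 3.75.

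By called peaks, SREBF2 had 8.38 ± 1.69 in 786-O against 10.2 ± 3.37 in RPTEC and ACACA 3.12 ± 1.81 against 5 ± 2.56 (SD, n = 8 libraries each). SREBF1, with 5 ± 2.45 against 3.50 ± 1.93, and FASN, with 4.62 ± 3.20 against 3.12 ± 2.70, had the larger mean in 786-O (SD, n = 8 each). ACLY, INSIG1 and SQLE differed by 1, 0.25 and 0 peaks. The adjusted p of the 8 genes was 0.49 or more. The libraries of a line share a clone, so these p-values treat as independent what may be repeats. With the mean of each line as the unit, 4 against 4, no gene reached an adjusted p under 0.05 by either measure, with 1359 genes by called peaks and 1617 by rank at an unadjusted p under 0.05. With so few units, such an adjusted p would need a large share of all genes at the smallest possible p.

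**Figure D4:**
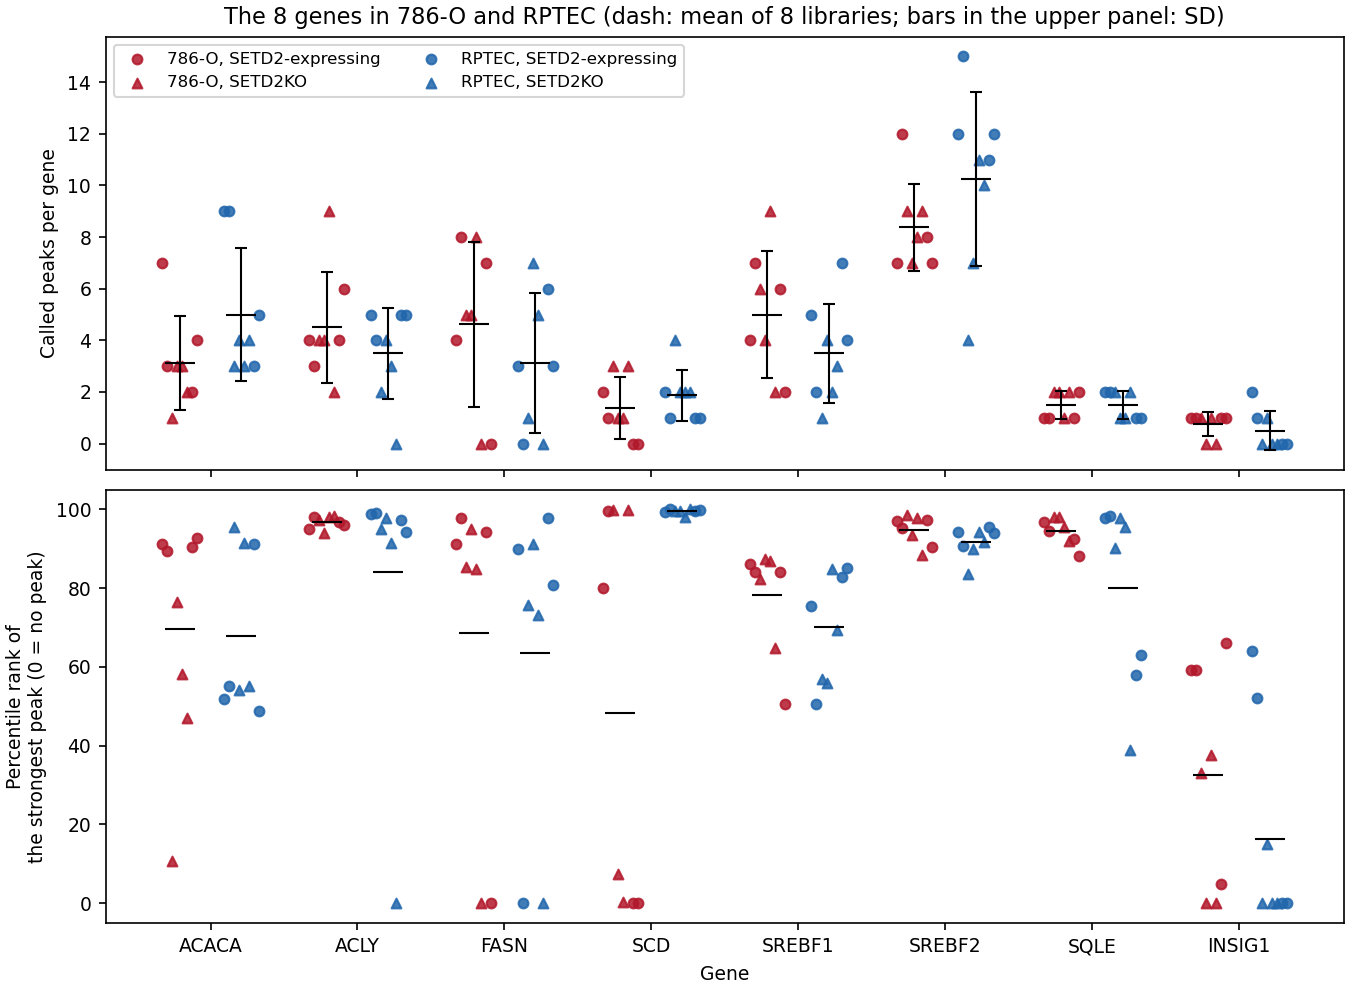
The number of called peaks (upper panel) and the percentile rank of the strongest peak (lower panel) of the 8 genes in 786-O (red) and RPTEC (blue), 1 point per library, with circles for SETD2-expressing and triangles for SETD2KO libraries and a dash for the mean of 8 libraries. SCD is near rank 100 in every RPTEC library and spread over the whole range in 786-O, and the points of the cell lines overlap for all 8 genes.

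In RPTEC, where the rule used no value, no member separated SETD2KO from SETD2-expressing libraries. The test was the exact permutation test of 4 against 4 libraries (70 arrangements), whose smallest p is 0.0286, with adjustment over 12185 genes. No gene passed at an adjusted p under 0.05, which would have needed a large share of all genes at that smallest p. At an unadjusted p under 0.05 there were 295 genes by called peaks (2.42%) and 497 by rank (4.08%), and none of the 8 genes was among them.

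The lowest p-values belonged to SREBF2 and ACLY. SREBF2 had 8 ± 3.16 called peaks in SETD2KO and 12.5 ± 1.73 in SETD2-expressing RPTEC libraries (SD, n = 4 each; exact permutation p = 0.0571, adjusted p = 1). ACLY had 2.25 ± 1.71 against 4.75 ± 0.50 (SD, n = 4 each; exact permutation p = 0.0571, adjusted p = 1). ACACA had 3.50 ± 0.577 against 6.5 ± 3 (SD, n = 4 each; exact permutation p = 0.171), with the higher mean set by the WT pair. SCD, with 2.50 ± 1.00 against 1.25 ± 0.50, had its larger mean in SETD2KO (SD, n = 4 each; exact permutation p = 0.114). The median difference, SETD2KO minus SETD2-expressing, was -1.25 peaks over the 8 genes and -0.25 over all genes tested. The same means in 786-O, given with no test, were 8.25 and 8.50 for SREBF2, 4.75 and 4.25 for ACLY, 2.25 and 4 for ACACA, and 2 and 0.75 for SCD, SETD2KO first.

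Region by region, RPTEC held 126 regions in protein-coding genes with calls from the 4 SETD2-expressing libraries alone (0.213% of 59064) and 115 called the other way round (0.195%). None lay in the 8 genes. The nearest to it were 2 regions called in 3 of 4 SETD2-expressing libraries and not in SETD2KO, in SREBF1 (chr17:17832396-17832934, missed by SETD2KO-1R replicate 2) and in SREBF2 (chr22:41878941-41879615, missed by WT replicate 2). In 786-O the nearest was the SREBF2 region chr22:41856516-41857181, called in all 4 SETD2KO libraries and also in SETD2KO-1R replicate 2. When the 8 lists of a cell line were merged, the members held 77 regions in 786-O, of which 45.5% had a call from 1 library and 6.49% from all 8. All protein-coding genes had 38.0% and 10.6%. In RPTEC they held 83 regions, with 41.0% and 6.02% against 40.4% and 8.87%.

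The rest of the pathway was described by 63 further genes of lipid and sterol metabolism, of which 16 held a peak in all 16 libraries and 4 in none (ABCG1, MLXIPL, ACSL5 and DGAT2). Of the 20 other enzymes of sterol synthesis, all had a peak in at least 1 library and none passed the cell-line test by either measure. HMGCS1, IDI1 and FDPS, enzymes of the mevalonate pathway, were among those with a peak in all 16 libraries.

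Among 14 genes of SREBP control and sterol uptake, 13 were tested, and ABCA1 and MBTPS1 passed with higher values in 786-O. ABCA1, the cholesterol exporter, held 5.75 peaks on average in 786-O and 1.25 in RPTEC (exact permutation p = 0.000311, adjusted p = 0.0148). By rank, ABCA1 stood at 93.8 against 61.7 (adjusted p = 0.0196) and MBTPS1, the site-1 protease that cuts SREBPs, at 60.9 against 12.3 (adjusted p = 0.0476), all from the same exact permutation test. When every list was cut to its 19193 highest peaks, the adjusted p for the rank of MBTPS1 was 0.0909. Its call was also lost in 14 of 16 cases when a library was left out, with an adjusted p of up to 0.0807. ABCA1 passed by both measures in all 16 of those cases, but not by called peaks in the upper 50% of each list (same exact permutation test, adjusted p = 0.074), nor by the mean rank of all its peaks, where the difference was 2.91 in place of 32 percentile points (adjusted p = 0.991).

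None of the 14 tested genes of fatty acid synthesis and its supply, out of 15, passed the cell-line test. SCD5, a second desaturase, held no peak in 786-O and a peak in 6 RPTEC libraries (exact permutation p = 0.00699, adjusted p = 0.0813 by called peaks). Among 12 tested of 14 genes of fatty acid activation and glycerolipid synthesis, 1 passed by rank, AGPAT2, which makes phosphatidic acid, at 72.7 in 786-O against 10.2 in RPTEC (exact permutation p = 0.00155, adjusted p = 0.0314). That call was lost in 5 of 16 cases when a library was left out, with an adjusted p of up to 0.0546, and by mean rank (same exact permutation test, adjusted p = 0.0786). Over the 59 tested genes of the list the median difference in rank was 2.99, against 3.75 over all genes.

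In RPTEC none of the 56 tested pathway genes passed at an adjusted p under 0.05, and 2 had an unadjusted p under 0.05, both by rank and both named here after their values were seen. ME1, malic enzyme, stood at 76.1 in SETD2KO and 38.8 in SETD2-expressing libraries, and FADS2, a fatty acid desaturase, at 97.2 and 99.7 (exact permutation p = 0.0286 each, adjusted p = 0.7). A region of ME1 (chr6:83404293-83404872) was called in all 4 SETD2KO libraries of RPTEC and not in its SETD2-expressing ones. In 786-O none of the 63 genes held such a region.

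The genes whose number of called peaks followed that of ACACA most closely over the 16 libraries were NXN (Spearman's rho 0.897), CDK12 (0.794) and ATP6V0E1 (0.786). These values are given as a description over libraries that share clones, cell lines and list lengths.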

How the data were processed

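MeRIP-seq of 16 IP libraries was used, 2 for each of 4 lines in 2 cell lines, grouped by the sample titles. Per the study's methods, the authors mapped reads with STAR, used HTSeq for counting, applied scaling factors from E. coli spike-in RNA, and ran MACS2 on each IP library against its Input. The deposited score of each peak is a whole number, and no source used here gives its scale. The lists carry no read counts and the paper gives only a minimum number of reads per sample, so the depth of each library is unknown. Peaks within hg38 lists were matched to GRCh38.p14 gene bodies by an overlap of at least 1 bp, without exons.

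Called peaks per gene and the percentile rank of the strongest peak were compared between 786-O and RPTEC, and in RPTEC between SETD2KO and SETD2-expressing libraries. Two-sided exact permutation tests were run over all protein-coding genes with a peak in at least 1 library, with Benjamini-Hochberg adjustment and a threshold of 0.05. Nothing says that libraries of a line came from separate cultures, so their spread may be technical. Peaks that overlapped were merged into regions. The members, the pathway list and the tests were chosen with earlier results of these data known. The rule for genes named beside the 8 members took those of a pathway list that passed, those with a region called on 1 side alone, the 3 most like ACACA, genes that overlap a member, SETD2 and the cell type markers. SCD5, FADS2, HMGCS1, IDI1, FDPS, TADA2A, the pathway genes with no peak and the genes that share the FASN pattern fall outside it and were named after their values were seen. Some genes that these rules select are not reported here. The steps were tested on simulated data. Alternatives were the same number of peaks per library, the upper 50% by score, other overlap and merging rules, covered bp or mean rank, a filter on genes, a replicate block, each SETD2KO clone alone and each library left out. Leaving out the shortest lists and using lines as units were added after seeing the data. Python 3.11.15, NumPy 2.4.6, pandas 2.3.3 and SciPy 1.17.1 were used.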

Additional observations from a re-analysis of the deposited data

Results flagged for a closer look

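Within each group of 4 libraries (SETD2KO or SETD2-expressing in a cell line), 14 values of a member stood apart from the other 3 by more than Dixon's 95% limit. They came from 63 groups whose values were not all equal. The limit marks about 1 in 20 by chance only for independent, normally distributed values. That rate does not hold here, because called peaks are small whole numbers and ranks are bounded, with a fixed value where no peak was called. Both measures of a gene also come from the same peaks. Whether 14 is more than chance would give was therefore not tested. In whole numbers with ties, a difference of 1 peak is enough.

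By rank of the strongest peak, ACACA stood at 91.3 in RPTEC SETD2KO-1R replicate 1, against 48.7 to 55.2 in the other SETD2-expressing libraries. ACLY was at 0 in RPTEC SETD2KO-2 replicate 2, with the others at 91.4 to 97.7. FASN was at 0 in 786-O SETD2KO-2 replicate 2 (others 84.9 to 95.1) and at 0 in 786-O SETD2KO-1R replicate 2 (others 91.3 to 97.9). SREBF1 was at 50.6 in 786-O SETD2KO-1R replicate 2, against 84.0 to 86.1. SQLE was at 39.0 in RPTEC SETD2KO-2 replicate 2, against 90.1 to 97.7. INSIG1 was at 4.9 in 786-O SETD2KO-1R replicate 1, against 59.1 to 66.0, and at 14.9 in RPTEC SETD2KO-1 replicate 2, where the others held no peak. Of these 8 values, 5 lay in the shortest or second shortest list of the cell line, whose part was not tested.

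By called peaks, ACLY had 4 in RPTEC WT replicate 2 and 5 in the others. SCD had 4 in RPTEC SETD2KO-1 replicate 1 (others 2) and 2 in RPTEC WT replicate 1 (others 1). SQLE had 1 in 786-O SETD2KO-2 replicate 1 (others 2) and 2 in 786-O SETD2KO-1R replicate 2 (others 1). INSIG1 had 1 in RPTEC SETD2KO-1 replicate 2 and the others 0.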

How the results depend on the processing

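No member passed a test between cell lines or, in RPTEC, between SETD2KO and SETD2-expressing libraries under any alternative run, including a replicate block, which gave 0 of 8 members in each test. At an unadjusted p under 0.05 these alternatives gave 0 to 1 members by called peaks in either test, 1 to 2 by rank between the cell lines and 0 by rank in RPTEC. In RPTEC the block and the setting without the shortest lists cannot reach such a p and say nothing about stability. In the other RPTEC settings, an adjusted p under 0.05 would need at least a large share of all genes at the smallest possible p. The lack of members that passed there therefore says little about stability either. The replicate numbers share no origin in the labels, and the deviations of same-numbered libraries correlated over genes from -0.0719 to 0.176 in 786-O and from -0.171 to 0.174 in RPTEC, with 1 of 6 pairs of lines over 0.1 in each. The ACACA region of 786-O was the 1 region called in SETD2-expressing libraries alone under every alternative run. The genes were chosen with that region in view and the alternatives use the same lists, so this is a description and no support. Regions called in 786-O SETD2KO libraries alone numbered 0, and 1 (SREBF2) where a library had to cover at least 50% of the region or where at most 1 library could differ. Without the 2 shortest lists of each cell line they numbered 2 (ACLY and SREBF2). The count ran from 0 to 1 when each library was left out, with the SREBF2 region gained without SETD2KO-1R replicate 2. Regions called in RPTEC SETD2-expressing libraries alone numbered 0, and 2 (SREBF1 and SREBF2) where at most 1 library could differ, 1 (ACLY) with SETD2KO-2 as the only knockout, and 1 (SREBF2) without the 2 shortest lists. Leaving out each library gave 0 to 1, with SREBF2 gained without WT replicate 2 and SREBF1 without SETD2KO-1R replicate 2. Genes called between the cell lines numbered 719 by called peaks and 843 by rank. These became 430 and 528 when lists were cut to an equal length, 129 and 386 in the upper 50% of each list, 1526 by covered bp and 527 by mean rank. They were 0 and 0 both without the shortest lists, where 1987 and 2375 genes had an unadjusted p under 0.05, and with lines as units. The calls for ABCA1, MBTPS1 and AGPAT2 were among those lost in the last 2 settings. The causes were not tested, beyond the fewer units that these settings leave.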

Other observations

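The genes that shared the FASN pattern, with no peak in the 2 shortest lists of each cell line and a peak in the other 12, were ACAP3, CC2D1B, CSTF2, DNTTIP1, EIF4EBP1, GPS2, MDM1, PINX1, TAGLN2, TCEAL6 and UBXN1. GPS2 and EIF4EBP1 are known as regulators of transcription and of translation. The pattern was looked for after the FASN values were seen.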
